A study of Mus musculus with 50 samples.

Results

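The members are 43 nuclear genes for subunits of the mitochondrial respiratory chain, measured in dorsal root ganglia of inbred mice. They were chosen by name: 26 genes for subunits of complex I, 4 for complex II, 5 for complex III and 8 for complex IV, with Ndufa4 placed in complex IV. Each was read from the probe set with the highest mean of those annotated to that gene alone, on the log2(intensity + 1) scale, and kept when it was above log2 4 in at least 2 arrays. In this way 42 of the 43 members were measured, among 11204 genes tested in all. The only probe set of Ndufs6 is also annotated to Ndufs6b, and no value is given for that member. The groups were 25 inbred strains, each with 1 array of pooled males and 1 array of pooled females, 50 arrays in all. All mice were wildtype and naive, were 2 months old, and were pooled by 3 within a sex and strain. The strains, spelled as the labels give them, were 129S1/Sv1mJ, A/J, AKR/J, BALB/CByJ, BTBT T+tf/J, BUB/BnJ, C3H/HeJ, c57BL/6J, C57BR/cdJ, C58/J, CBA/J, DBA/2J, FVB/NJ, KK/HIJ, MRL/MpJ, NOD/LtJ, NON/LtJ, NZO/HILtJ, NZW/LacJ, P/J, PL/J, RIIIS/J, SJL/J, SM/J and SWR/J. No strain had replicate pools of the same sex, so the spread behind every strain test is that between its male and its female pool after the mean sex difference.

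The respiratory chain lies in the inner mitochondrial membrane and passes electrons from NADH and succinate to oxygen, pumping protons that drive ATP synthase. Complex I takes electrons from NADH, complex II is the succinate dehydrogenase of the tricarboxylic acid cycle, complex III passes electrons to cytochrome c, and complex IV reduces oxygen. Some subunits of complexes I, III and IV are encoded by mitochondrial DNA, and the genes described here are nuclear. Sensory neurons of the dorsal root ganglion maintain long axons and depend on mitochondria for ion pumping and transport.

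Each array gave 18703 to 19327 probe sets above log2 4. All 10 neuron markers examined were above the filter, with the neurofilament heavy chain gene Nefh at a mean of 13.02. The lowest intensity ran from 1.629 to 1.655 in the male arrays and from 1.726 to 1.744 in the female arrays. No label records how the arrays were grouped for normalization, and any difference in it between the sexes cannot be told apart from sex. The difference between the 3' and the 5' Gapdh control probe sets, a measure of RNA integrity, was 0.60 on male BTBT T+tf/J and 0.34 on female P/J. It was -0.09 or lower on the other 48 arrays. The array labelled male PL/J carried Xist at 8.97 and the array labelled female SM/J carried Eif2s3y at 6.82, so both held transcripts of both sexes.

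Strain differences of the respiratory chain genes were small. The range of the 25 strain means had a median of 0.50 log2 units over the 42 measured members and ran from 0.25 for Cox4i1 to 1.22 for Sdhd. Over the 3115 other tested genes whose mean level lay within 0.5 log2 units of a member, here called like-level genes, the median range was 0.71, and over all tested genes it was 0.82. As a set the like-level genes were dimmer, with a median mean level of 9.37 against 11.16 in the members. Comparisons with the whole set, here and below, are thus not matched member by member. Set against the like-level genes within 0.5 log2 units of its own mean, a member had a median percentile of 29.1. Of the 42, 34 had a range below the 50th percentile, 17 below the 25th, and 1, Ndufb5, above the 90th. A range of at least 1 was seen in 2 members, Sdhd and Ndufb5, and in 19.7% of like-level genes. The residual SD after strain and sex had a median of 0.142 in the members and 0.182 in like-level genes, so that both the ranges and the spread between paired pools were on the small side.

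By the limma F test over strains, with Benjamini-Hochberg adjustment over all 22205 tested probe sets, 3 of the 42 members were called at an adjusted p under 0.05, or 7.14%. The background was 26.1% of all tested genes and 26.9% of like-level genes. The called members were Cox5b, Uqcrq and Ndufa3. An unadjusted p under 0.05 was reached by 6 members. The correlation of male with female values over the 25 strains had a median of 0.19 over the members and 0.29 over like-level genes.

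**Figure D1:**
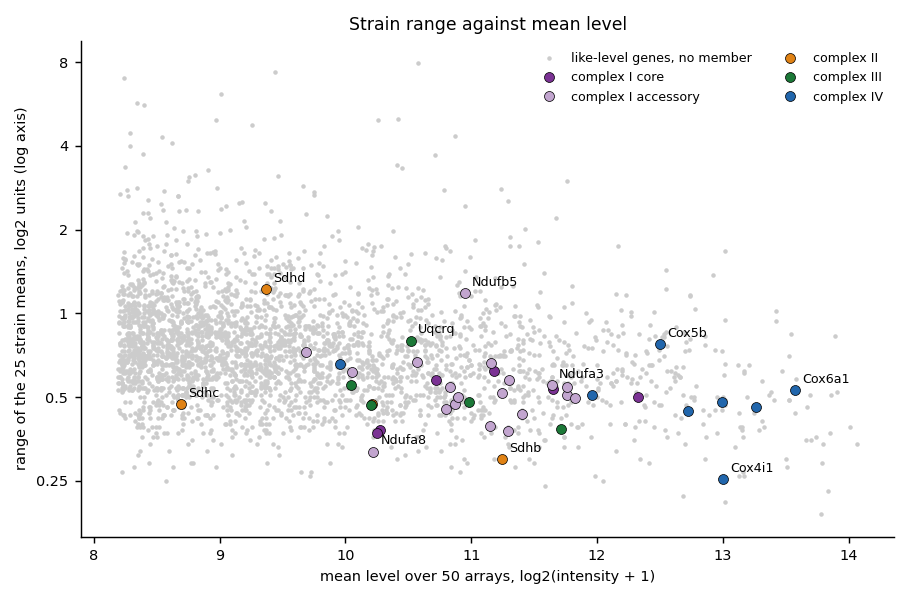
Range of the 25 strain means (log2 units, log axis) against the mean level over 50 arrays, log2(intensity + 1), for the 42 measured members, coloured by complex, and the 3115 like-level genes in grey. Most members lie in the lower part of the grey cloud; Cox4i1 is lowest at 0.25, and Sdhd at 1.22 and Ndufb5 at 1.18 are the members above 1.

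Cox5b, a nuclear subunit on the matrix side of complex IV, had the strain difference with the lowest p of the members. Its strain means ran from 12.07 in AKR/J through a median of 12.46 in PL/J to 12.85 in 129S1/Sv1mJ, a range of 0.77 or 1.71-fold. The adjusted p of the limma F test was 4.8e-05. Males and females gave a similar order of strains, with a correlation of 0.84 over 25 strains. The low end was held by AKR/J, with 12.17 in males and 11.98 in females, FVB/NJ, with 12.18 and 12.20, and CBA/J, with 12.23 and 12.15. The high end was held by 129S1/Sv1mJ, with 12.87 and 12.83, and BTBT T+tf/J, with 12.87 and 12.77. No array of these 3 low strains overlapped an array of these 2 high strains. The strains were picked by the same values, so the lack of overlap is no further test. Neighbours in the middle of the order, such as KK/HIJ at 12.45 ± 0.02 and DBA/2J at 12.45 ± 0.03 (SD of the paired pools, n = 2), did not differ beyond their spread.

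Uqcrq, a small subunit of complex III, ran from 10.12 in BTBT T+tf/J through a median of 10.48 in FVB/NJ to 10.92 in NOD/LtJ, a range of 0.80 or 1.74-fold. The adjusted p of the limma F test was 0.00492 and the correlation of males with females was 0.64. NOD/LtJ gave 10.92 in both pools, and BTBT T+tf/J gave 10.04 in males and 10.20 in females. Next to the highest stood NON/LtJ, at 10.84 ± 0.26, and SWR/J, at 10.81 ± 0.02 (SD, n = 2), which did not differ from each other beyond their spread. The order was not that of Cox5b. BTBT T+tf/J was lowest in Uqcrq and next to highest in the brightest probe set of Cox5b, but not high in all its others. The strain means of Uqcrq and Cox5b correlated at 0.19. Over 50 arrays, each sex centred, the level correlated with the Gapdh difference at 0.44 for Cox5b, -0.34 for Uqcrq and -0.25 for Ndufa3, and without male BTBT T+tf/J and female P/J at 0.32, -0.16 and -0.09. The part of RNA integrity in their strain order was not tested. Taken relative to the mean of the other members in each array, the male and female values of Uqcrq correlated at 0.84 and those of Cox5b at 0.69. With the members' mean subtracted from every array, Cox5b and Uqcrq were still called.

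Ndufa3, an accessory subunit of complex I, ran from 11.31 in RIIIS/J through a median of 11.73 in NZW/LacJ to 11.86 in SWR/J, a range of 0.55 or 1.47-fold. The adjusted p of the limma F test was 0.0338. In RIIIS/J, BUB/BnJ, P/J and FVB/NJ both pools were low, with males between 11.11 and 11.24 and females between 11.38 and 11.57. In NOD/LtJ, 129S1/Sv1mJ, C58/J and SWR/J both pools were between 11.78 and 11.94, above every array of those 4 low strains. Here too the strains were picked by the values compared. NZW/LacJ had the widest gap between its pools, at 11.41 in males and 12.05 in females. Leaving out 1 array ended this call in 9 of 50 cases, with adjusted p up to 0.0653 by the limma F test. The adjusted p was 0.246 with no sex term, 0.0592 without male BTBT T+tf/J and female P/J, and 0.0562 with the members' mean subtracted.

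**Figure D2:**
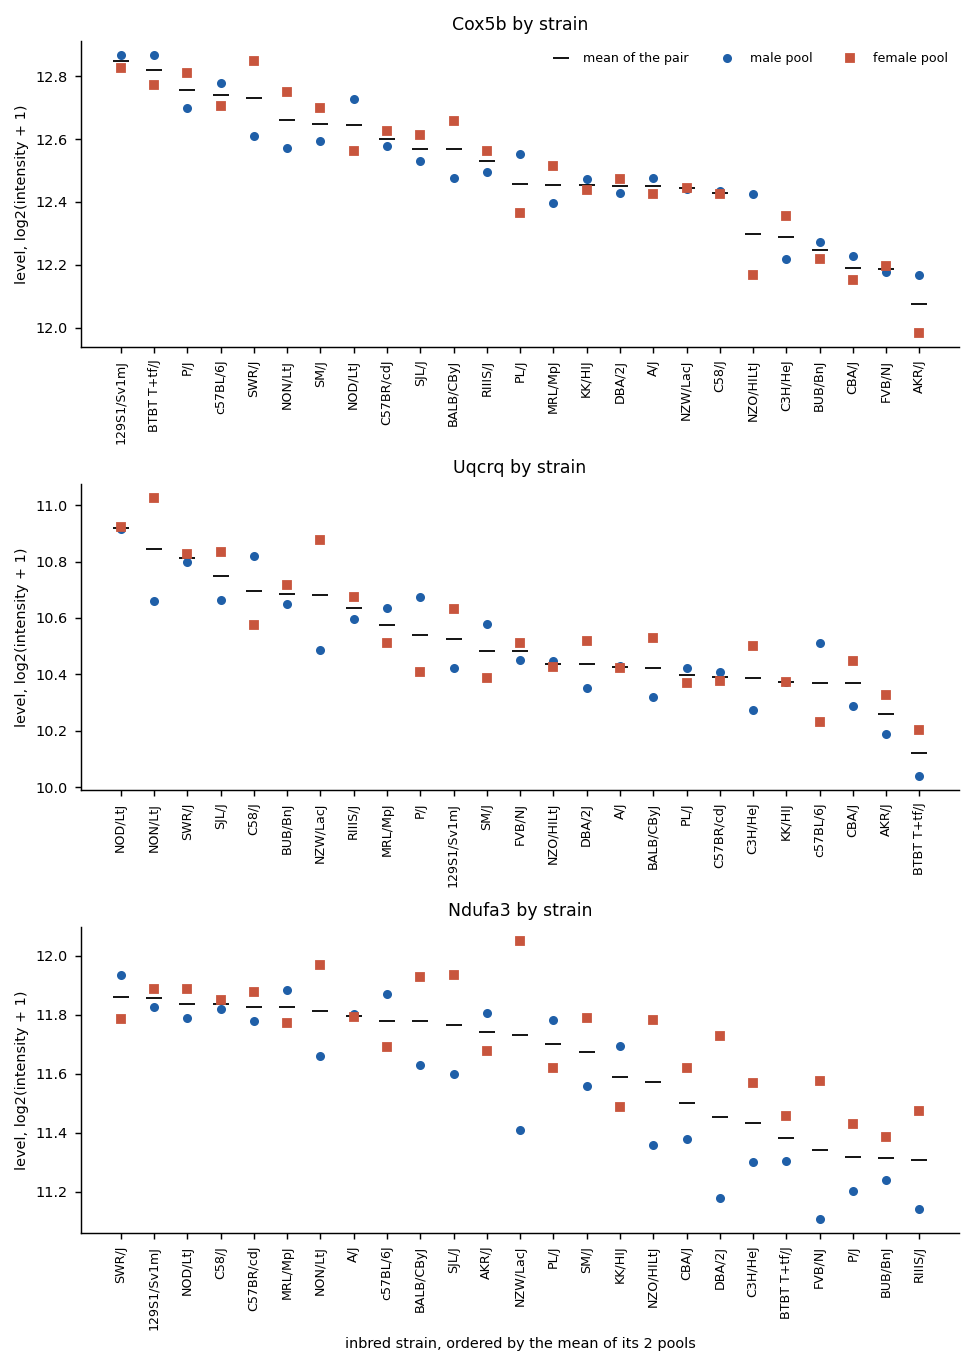
Level of Cox5b, Uqcrq and Ndufa3, log2(intensity + 1), in the male pool (circles) and the female pool (squares) of each of 25 strains, ordered by the mean of the pair (bars). The order of strains differs between the genes; AKR/J is lowest in Cox5b at 12.07, BTBT T+tf/J in Uqcrq at 10.12 and RIIIS/J in Ndufa3 at 11.31.

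The promoters of Cox5b and Ndufa3 are shown because these are the called members with a window in the RefSeq promoter table. The sequences are the 250 bases before the annotated start, 5′ to 3′ on the strand of the gene, in build GRCm38.p6. The Cox5b stretch is chr1:36691237-36691486 on the plus strand, and the Ndufa3 stretch is chr7:3617123-3617372 on the plus strand. Capitals mark exact matches, on either strand, to letters of known binding motifs: GCGCATG for NRF1, CCGGAAG for GABPA, AAGATGGC for YY1, GGGCGG for SP1, AAGGTCA for the estrogen-related receptors and TATAAA for the TATA box.
Cox5b: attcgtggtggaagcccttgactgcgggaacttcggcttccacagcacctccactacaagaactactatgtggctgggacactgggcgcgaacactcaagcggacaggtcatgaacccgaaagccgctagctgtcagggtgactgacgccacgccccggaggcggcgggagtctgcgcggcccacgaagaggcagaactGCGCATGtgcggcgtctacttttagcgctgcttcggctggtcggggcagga
Ndufa3: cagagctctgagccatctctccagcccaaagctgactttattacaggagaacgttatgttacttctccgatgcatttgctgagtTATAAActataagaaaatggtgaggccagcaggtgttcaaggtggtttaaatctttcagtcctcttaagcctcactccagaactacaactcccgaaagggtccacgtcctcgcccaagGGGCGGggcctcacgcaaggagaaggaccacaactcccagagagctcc
The Cox5b stretch holds 1 match, to the NRF1 letters, beginning 51 bases before the start. These letters were shortened from GCGCATGC after the promoters had been read, and the window of Cox5b holds no match to the longer form. The Ndufa3 stretch holds the SP1 letters 48 bases and the TATA letters 166 bases before the start, none of them overlapping. The YY1 letters of Ndufa3 begin 22 bases after the start, outside the printed stretch.

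Windows of 300 bases, 250 before and 50 after the start, were given for 35 of the 43 members and for 27025 genes in all, of which 9089 were tested here. The NRF1 letters were in 7 of the 35 members, in 4.41% of all genes with a window and in 7.82% of the tested ones. Because they were shortened with the members' promoters known, this count is not independent of those promoters. The longer GCGCATGC was in 5 of 35 members and in 5.96% of tested genes. The YY1 letters were also in 7 of 35, in 3.19% of all genes and in 5.33% of tested genes. The GABPA letters were in 8 of 35, in 9.93% of all genes and in 19.6% of tested genes. At least 1 of these 3 motifs, whose factors are known regulators of respiratory chain genes, was in 19 of 35 members, or 54.3%, and in 29.2% of tested genes. With the longer NRF1 letters it was 18 of 35, or 51.4%, and 27.9%. The SP1 letters were in 15 of 35 members and 69.4% of tested genes, the TATA letters in 3 members and 8.85%, and the estrogen-related receptor letters in 2 members and 3.69%. These are matches of letters and not measured binding. No motif was shared by the windows of Cox5b and Ndufa3.

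In complex I, none of the 6 core subunits was called for strain with all 50 arrays. Ndufv1 was called when male BTBT T+tf/J and female P/J were left out, which leaves 1 pool in each of those strains. The core carries the flavin and the iron-sulfur centres: Ndufv1 binds the flavin that accepts electrons from NADH, Ndufv2 is its partner in the NADH module, and Ndufs1, Ndufs3, Ndufs7 and Ndufs8 form the rest of the peripheral arm's electron path. Their ranges ran from 0.37 for Ndufs3 to 0.62 for Ndufs7. The strain means of Ndufs7 lay between 10.91 in C58/J and 11.53 in 129S1/Sv1mJ, with an adjusted p of 0.112 by the limma F test. Of the 19 measured accessory subunits, which surround the core, 1 was called, Ndufa3. Ndufa13, also known as GRIM-19, had an adjusted p of 0.0527 by the limma F test, with strain means between 11.42 in AKR/J and 11.96 in BTBT T+tf/J. Ndufa8 had the smallest range of complex I at 0.32, from 10.07 in C58/J to 10.38 in 129S1/Sv1mJ. The paired pools gave 10.07 and 10.07 in C58/J and 10.40 and 10.37 in 129S1/Sv1mJ, within the span of single arrays from 9.88 in female P/J to 10.49 in female SM/J.

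In complex II, none of the 4 members was called. Sdhb, the iron-sulfur subunit, had a range of 0.30, with strain means from 11.10 in AKR/J through 11.25 in NOD/LtJ to 11.40 in SM/J and an adjusted p of 0.86 by the limma F test. Sdha, the flavoprotein, had a range of 0.47, lowest in P/J and highest in RIIIS/J, and the membrane anchor Sdhc lay between 8.42 in SWR/J and 8.89 in MRL/MpJ. In complex III, 1 of 5 members was called, Uqcrq. The core proteins Uqcrc1 and Uqcrc2 had ranges of 0.47 and 0.39, the Rieske iron-sulfur protein Uqcrfs1 had 0.55, and cytochrome c1, Cyc1, had 0.48. In complex IV, 1 of 8 was called, Cox5b. Cox4i1, the ubiquitous form of subunit 4, varied least of the 42, with strain means from 12.89 in C58/J through 13.00 in A/J to 13.14 in 129S1/Sv1mJ. The other nuclear subunits of complex IV had ranges between 0.44 for Cox5a and 0.66 for Cox8a. Over the complexes the median range was between 0.47 and 0.52, so that the complexes differed little in how far their members ranged.

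The members with the widest ranges were not called. Sdhd, a membrane anchor of complex II, had strain means from 8.44 in P/J through 9.45 in RIIIS/J to 9.66 in MRL/MpJ and an adjusted p of 0.481 by the limma F test. In P/J and SWR/J the low value lay in the female array. P/J gave 9.45 in males and 7.43 in females, and SWR/J gave 9.60 and 8.41. BTBT T+tf/J was low in both pools, at 8.52 and 9.00. The further probe set of Sdhd had a range of 0.60 and was lowest in NOD/LtJ. Its strain means correlated with those of the leading probe set at 0.28. Ndufb5, an accessory subunit in the membrane arm of complex I, had strain means from 10.34 in P/J through 10.95 in BALB/CByJ to 11.51 in 129S1/Sv1mJ and an adjusted p of 0.208 by the limma F test. P/J gave 10.88 in males and 9.79 in females, while 129S1/Sv1mJ was high in both, at 11.45 and 11.58. Without female P/J the range fell to 0.899 for Sdhd and 0.968 for Ndufb5. Without male P/J it was 2.26 and 1.76 and both were called, with adjusted p of 0.00467 and 0.0099 by the limma F test, the lone female pool being assumed to vary like those of other strains.

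The 2 arrays with the highest 3' to 5' difference of Gapdh were the low end of several members. Male BTBT T+tf/J and female P/J were each lowest of their sex in Sdhd, Ndufb5, Ndufv2, Ndufs4, Ndufs1, Ndufs3, Ndufa9, Uqcrfs1 and Cox8a. They were each highest of their sex in Ndufa5, at 12.28 and 12.26, and in Ndufb7, at 11.17 and 11.20. Over 50 arrays, each sex centred on its own mean, the level correlated with the Gapdh difference at -0.81 for Sdhd, -0.71 for Ndufs4, -0.67 for Ndufv2 and -0.65 for Ndufa9. It correlated at 0.70 for Ndufa5, 0.67 for Ndufb7 and 0.49 for Ndufs7. Without those 2 arrays the values were -0.67 for Sdhd, -0.42 for Ndufs4, -0.40 for Ndufv2, 0.46 for Ndufa5 and 0.34 for Ndufb7. Among the arrays left, the Gapdh difference was highest on female c57BL/6J, at -0.09, and next on female SWR/J, at -0.21. Ndufb5 lay at 10.82 and 10.23 on these, and Ndufb7 at 10.74 and 11.16. The median over the members was -0.20 with all arrays and -0.06 without the 2, and over like-level genes 0.00 and 0.06. A correlation below -0.5 was seen in 9 of 42 members and in 13.8% of like-level genes. The part of RNA integrity in these members' differences was not tested either.

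No member differed in 1 strain from the mean of the other 24 by at least 1 log2 unit with an adjusted p under 0.05, a rule that 0.854% of all gene and strain pairs met. With no minimum difference, limma called 12 of the pairs formed by the 42 members and 25 strains. That is a smaller share than the 3.21% of all pairs of a tested gene and a strain. Cox5b accounted for 5: it was higher in 129S1/Sv1mJ by 0.36 and in BTBT T+tf/J by 0.33, and lower by 0.45 in AKR/J, with -0.33 in FVB/NJ and -0.32 in CBA/J. Uqcrq accounted for 2, at 0.41 in NOD/LtJ and -0.42 in BTBT T+tf/J. Ndufa2, Ndufa12 and Cox6b1 were higher in 129S1/Sv1mJ, by 0.40, 0.35 and 0.31, while their F tests did not pass. In that strain the male and female pools gave 11.54 and 11.82 for Ndufa2, 11.03 and 11.44 for Ndufa12, and 13.39 and 13.72 for Cox6b1. Ndufb5 at -0.64 and Sdhd at -0.96 were lower in P/J, each through the female array. The adjusted p of these 12 ran from 0.00105 for Cox5b in AKR/J to 0.0492 for Ndufb5 in P/J.

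Of the 25 strains, 129S1/Sv1mJ had the highest mean of the members, with the rise lying mostly in complexes I and IV. The mean of the 42 members, taken as the difference from the mean of the 25 arrays of the same sex, was 0.16 in the male and 0.23 in the female pool of 129S1/Sv1mJ. In both pools 36 of 42 members were above the mean of their sex, against 45.6% of like-level genes. It was the highest strain for 17 of 42 members, or 40.5%, and for 10.2% of like-level genes. By group, members above the mean in both pools numbered 5 of 6 in the core and 19 of 19 in the accessory subunits of complex I, 2 of 4 in complex II, 3 of 5 in complex III and 7 of 8 in complex IV. The group means, males first, were 0.11 and 0.30 for the core and 0.20 and 0.27 for the accessory subunits. They were 0.01 and 0.07 for complex II, 0.06 and 0.14 for complex III, and 0.22 and 0.21 for complex IV. The median difference of the members from the other strains was 0.20, and that of like-level genes 0.05. The strain was singled out after its values were seen. Its Gapdh difference was -0.47 in males and -0.45 in females, above the median of -0.59 and within a span of -0.73 to 0.60. Its marker means, males first, were -0.53 and -0.46 for macrophages, -0.44 and -0.19 for vessels and fibroblasts, -0.43 and -0.06 for adipose tissue, and -0.39 and -0.22 for blood. They were -0.17 and -0.17 for Schwann cells, -0.12 and -0.28 for satellite glia, 0.04 and 0.00 for neurons, and 0.57 and -0.39 for skeletal muscle. The part of these in the members' level was not tested.

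At the other end, P/J had the lowest mean, but its pools disagreed, at 0.05 in males and -0.23 in females. In female P/J, 33 of 42 members, or 78.6%, were below the mean of their sex, against 47.9% of like-level genes, and complex II lay at -0.69. The Gapdh difference of that array was 0.34. Its marker means were -1.25 for blood, -0.63 for skeletal muscle, -0.41 for macrophages, -0.37 for vessels and fibroblasts, -0.05 for Schwann cells, 0.03 for satellite glia, 0.10 for neurons and 0.32 for adipose tissue, and their part in the members' level was not tested. BUB/BnJ was low in both, at -0.11 and -0.06, with 27 of 42 members, or 64.3%, below the mean in both pools, against 24.8% of like-level genes. CBA/J was low in both as well, at -0.11 and -0.06. Over the 25 strains the male and the female mean of the members correlated at 0.10, with a Spearman rho of -0.04, and at -0.09 without 129S1/Sv1mJ and P/J. The SD of the members' mean over strains was 0.061, and the spread of paired pools, as the SD of the male minus female differences divided by the square root of 2, was 0.079. The SD over strains is that of means of 2 pools and the other that of single pools, so they are not directly comparable. By the correlation of -0.09, the order of the strains other than 129S1/Sv1mJ and P/J was not shared by the male and the female pools.

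**Figure D3:**
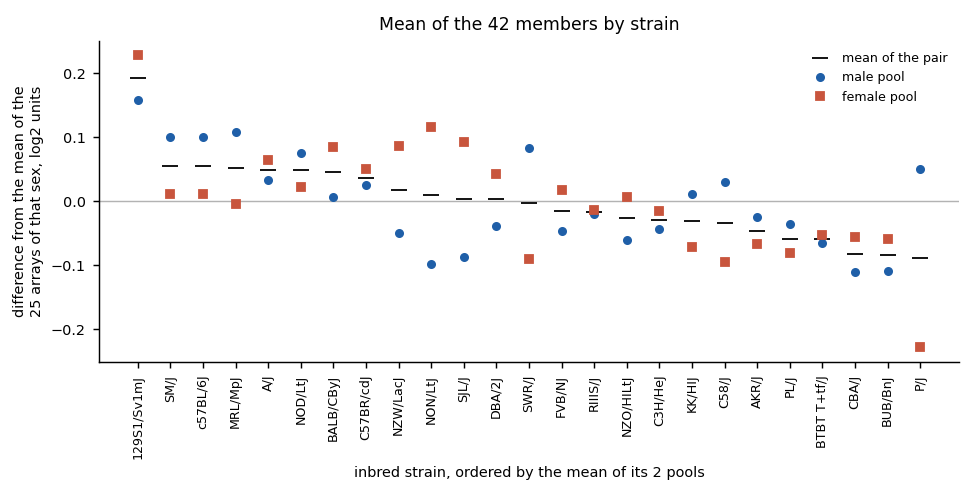
Mean over the 42 measured members in each array, as the difference from the mean of the 25 arrays of that sex (log2 units), for the male (circles) and female (squares) pool of each strain, ordered by the mean of the pair (bars). Both pools of 129S1/Sv1mJ lie high, at 0.16 and 0.23; the pools of P/J lie at 0.05 and -0.23.

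Members co-varied loosely. The Pearson correlation of strain means had a median of 0.21 over the 861 pairs of measured members and of 0.02 over pairs of like-level genes. It exceeded 0.5 in 13.2% of member pairs and 5.39% of like-level pairs. Within the male arrays the median was 0.20 and within the female arrays 0.27, and 64 pairs exceeded 0.5 in both. The correlation of the same pair in males and in females, over the 861 pairs, was 0.47. Within-strain differences, male minus female, which hold no strain mean, correlated between members at a median of 0.27, against 0.04 in like-level genes. The median was thus no lower for paired pools of 1 strain than for strain means.

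The members most like the mean of the others were Ndufb9, an accessory subunit of complex I, at a correlation of 0.78 over 25 strains, Cox8a at 0.76 and Cox4i1 at 0.70. A further probe set of Ndufb9 correlated with its leading one at 0.19 over strain means, and that of Cox8a at 0.91. The least like were Uqcrc2 at -0.20, Sdha at -0.01 and Ndufb7 at 0.05. Within groups, the median pair correlation was 0.28 for the core and 0.25 for the accessory subunits of complex I, 0.24 for complex II, 0.00 for complex III and 0.19 for complex IV. With members of other groups it was between 0.11 for complex II and 0.23 for complex IV, so subunits of a complex were not set far apart from the rest. The lowest correlations paired Ndufa5 and Ndufb7 with Sdhd, at -0.62 and -0.61, members that lay at opposite ends of the correlation with the Gapdh difference.

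**Figure D4:**
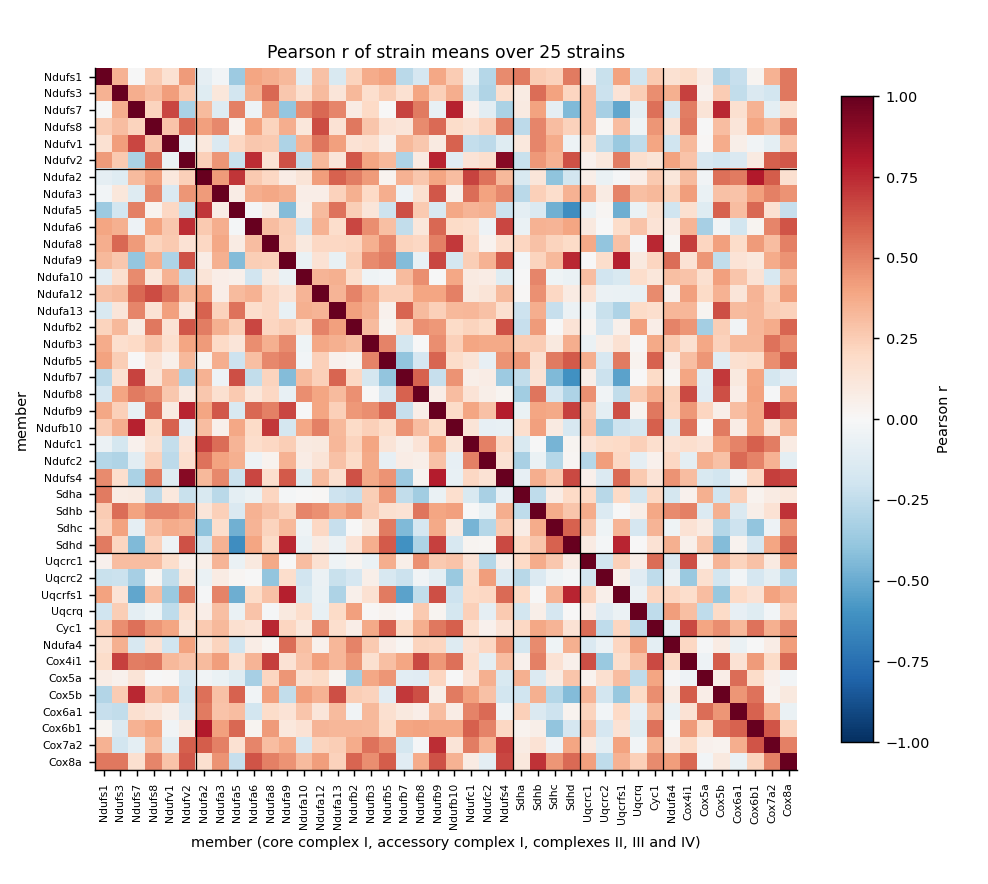
Pearson correlation of strain means over 25 strains for every pair of the 42 measured members, from -1 (blue) to 1 (red); black lines part core complex I, accessory complex I and complexes II, III and IV. Most pairs are weakly positive (median 0.21), with the highest value at Ndufv2 and Ndufs4 (0.91) and blue cells where Ndufa5 and Ndufb7 meet Sdhd.

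The tightest pair was Ndufv2, the core partner of the flavin subunit, and Ndufs4, an accessory subunit next to the NADH module whose loss in mice gives a Leigh-like disease. Their strain means correlated at 0.91, the male values at 0.90 and the female values at 0.93. Ndufv2 ran from 11.18 in BTBT T+tf/J through 11.69 to 11.96 in MRL/MpJ in males, and from 11.22 in P/J through 11.65 to 11.83 in C3H/HeJ in females. Ndufs4 had a lowest, median and highest value of 8.78, 9.57 and 9.86 in males and of 9.11, 9.86 and 10.17 in females, with the same strains at each end. Over arrays, each sex centred, the pair correlated at 0.91, and at 0.87 without male BTBT T+tf/J and female P/J. Neither was called for strain, with adjusted p of 0.481 and 0.391 by the limma F test. All these values are those of the leading probe sets. Further probe sets of Ndufv2 correlated with its leading one at 0.09 and 0.11 over strain means, and those of Ndufs4 at 0.35 and 0.10.

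The promoters of this pair are shown as those of the members whose leading probe sets moved together most closely, with motif matches in capitals as above. Both lie on the minus strand of build GRCm38.p6, Ndufv2 at chr17:66101560-66101809 and Ndufs4 at chr13:114388095-114388344.
Ndufv2: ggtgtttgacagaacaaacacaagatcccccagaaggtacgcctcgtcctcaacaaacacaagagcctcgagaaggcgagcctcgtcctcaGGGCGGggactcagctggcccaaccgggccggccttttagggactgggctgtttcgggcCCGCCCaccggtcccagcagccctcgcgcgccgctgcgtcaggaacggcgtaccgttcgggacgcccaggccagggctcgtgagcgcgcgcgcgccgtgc
Ndufs4: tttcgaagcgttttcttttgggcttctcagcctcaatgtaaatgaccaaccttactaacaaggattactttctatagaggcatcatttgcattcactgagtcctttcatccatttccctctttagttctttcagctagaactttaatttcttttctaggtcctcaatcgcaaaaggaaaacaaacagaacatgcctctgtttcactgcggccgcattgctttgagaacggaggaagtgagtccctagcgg
The Ndufv2 stretch holds the SP1 letters on both strands, beginning 159 and 100 bases before the start, and has a GC content of 68%. The Ndufs4 stretch holds none of the letters and has a GC content of 42%. The YY1 letters of Ndufs4 begin 35 bases after the start, outside the printed stretch. The windows of the pair shared no motif.

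Other probe sets of the same genes gave a partly different picture. Of the 42 measured members, 25 had 38 further probe sets above the filter, whose strain means correlated with those of the leading probe set at a median of 0.63, from -0.31 to 0.98. Of the 38, 7 passed the limma F test over strains, or 18.4%, against 24.7% of all tested probe sets. They include all 3 further probe sets of Cox5b, with ranges of 0.78, 0.72 and 0.56, adjusted p of 0.0173, 0.00021 and 0.0301, and AKR/J lowest in each. In BTBT T+tf/J, next to highest in the leading one, they gave 12.24, 12.48 and 11.91. Their means over all arrays were 12.23, 12.19 and 12.04, so the high level of that strain was not seen in all of them. The further probe set of Ndufa3 had a range of 0.62 and an adjusted p of 0.0167 by the limma F test, and its strain means correlated with the leading ones at 0.98. Uqcrq has no further probe set. Ndufc1, a small accessory subunit of complex I, was called in its further probe set, with a range of 0.73 and an adjusted p of 0.036 by the limma F test, from 9.14 in BTBT T+tf/J to 9.87 in 129S1/Sv1mJ.

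Ndufv1 and Ndufa12 had the further probe sets with the widest ranges of those called. In Ndufv1, a further probe set with the suffix _a_at had a range of 1.96, an adjusted p of 1.1e-10 by the limma F test and a correlation of males with females of 0.93. Its 12 arrays of FVB/NJ, NZW/LacJ, SJL/J, NON/LtJ, BUB/BnJ and KK/HIJ lay between 8.87 and 9.73, and the 38 arrays of the other 19 strains between 10.42 and 11.27. The groups did not overlap, and they were seen after the values. In the leading probe set the same 12 arrays lay between 10.27 and 10.91 and the other 38 between 10.31 and 11.16, with a range of strain means of 0.58 and an adjusted p of 0.148 by the limma F test. The third probe set of Ndufv1 had a range of 0.61 and an adjusted p of 0.859 by the limma F test. The gap between the 6 strains and the others was thus seen in 1 of the 3 probe sets, while in the brighter one the same arrays overlapped. The strain means of these 2 probe sets still correlated at 0.67. In the leading one NON/LtJ, SJL/J, BUB/BnJ and KK/HIJ were also low, at 10.43, 10.47, 10.47 and 10.52. NZW/LacJ lay at 10.66 and FVB/NJ at 10.82, about a mean of 10.72.

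In Ndufa12, an accessory subunit of complex I, the dimmest of 3 probe sets had a range of 1.17, an adjusted p of 1.2e-05 by the limma F test and a correlation of males with females of 0.81. Its 6 arrays of c57BL/6J, NON/LtJ and NZW/LacJ lay between 10.63 and 11.50 and those of the other 22 strains between 9.78 and 10.77, which overlap through female AKR/J. In the leading probe set the 6 arrays lay between 10.40 and 11.07 and the others between 10.60 and 11.44, and the strain means of both probe sets correlated at -0.07. With the median over all probe sets of a gene in place of the leading one, 7 members were called for strain: Cox5b, Ndufa3, Ndufa13, Ndufb5, Ndufc1, Ndufv1 and Uqcrq. Among probe sets without the suffixes for shared or similar sequence (_s_at, _x_at and _a_at), 29 members were measured and 2 were called, Ndufa3 and Ndufc1. Cox5b and Uqcrq have no such probe set.

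**Figure D5:**
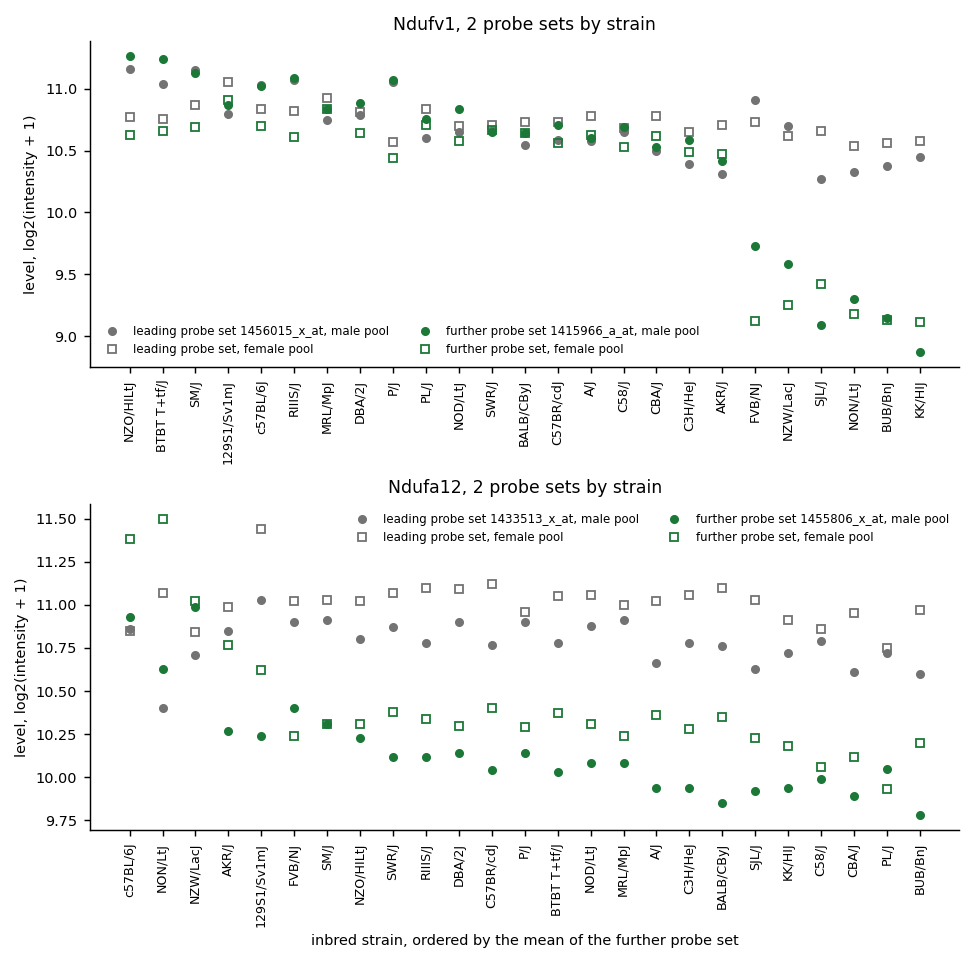
Level of the leading probe set (grey) and of a further probe set (green) of Ndufv1 and Ndufa12, log2(intensity + 1), in the male pool (circles) and female pool (squares) of each strain, ordered by the further probe set. In Ndufv1 the further probe set is at 9.73 or lower in 6 strains and at 10.42 or higher in the others, while the leading one is at 10.27 or higher in all.

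Of the 42 measured members, 2 were called higher in males and 17 higher in females by limma with strain as a block, against 24.7% and 34.3% of all tested genes. The median male minus female difference was -0.05 in the members and -0.07 in like-level genes. Ndufb3, an accessory subunit in the membrane arm of complex I, had the largest difference, with a mean of 11.07 in males and 11.42 in females, a difference of -0.35 (SE 0.04). It was higher in females in 25 of 25 strains, and its values lay at 10.67 to 11.31 in the male arrays and at 11.10 to 11.85 in the female arrays, which overlap. Cox6b1, a subunit of complex IV that faces the intermembrane space, was also higher in females in 25 of 25 strains, by 13.40 against 13.12. Ndufc1, Ndufs4, Ndufa13, Ndufc2 and Ndufb8 had differences between -0.31 and -0.29. The members higher in males were Ndufa4, with 12.04 against 11.89, and Ndufa10, with 10.89 against 10.77.

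The sex calls were not independent of scaling. With quantile normalization of all 50 arrays together, 10 members were higher in males and 12 higher in females, and the median difference of the members was 0.00. With the members' mean subtracted from each array, 10 were higher in males and 11 higher in females. The difference of Ndufc1 was -0.31 in the leading probe set and 0.15 in the probe set without a suffix. Ndufa4 and Ndufb3 kept their direction and their call under all alternatives that gave a value. Ndufa10 lost its call with the median over its probe sets, at a difference of 0.06. It also lost it without SM/J and PL/J, the strains of the arrays with transcripts of both sexes, at 0.10.

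Genes around the members were taken from lists chosen by name, and their counts stand against the 26.1% of all tested genes that passed the limma F test over strains. Of 14 further chain subunits tested, 3 were called, and the first of them, Ndufs5, had a range of 1.75, from 10.13 in BUB/BnJ to 11.89 in c57BL/6J, with an adjusted p of 1.48e-10. Ndufa7 ranged over 0.92 and Ndufv3 over 0.81. None of 15 ATP synthase subunits was called, with a median range of 0.52. Of 32 assembly factors tested, which help build the complexes and are not part of them, 12 were called. Acad9, which is needed for complex I assembly, had a range of 2.91, from 4.54 in FVB/NJ to 7.45 in SJL/J, with an adjusted p of 7.95e-12 by the limma F test. Ndufaf1, a complex I assembly factor, ranged over 1.68 and Cox18, which inserts a complex IV subunit into the membrane, over 1.47.

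Of 12 regulators of mitochondrial biogenesis tested, 1 was called, the mitochondrial transcription factor Tfb2m, with a range of 0.92 from 7.65 in c57BL/6J to 8.58 in AKR/J. Nrf1 was not above the filter in any array. Of 12 tricarboxylic acid cycle enzymes 1 was called, Suclg2, from 5.83 in NOD/LtJ to 6.83 in SWR/J. Of 6 subunit isoforms of muscle and other tissues 3 were tested and 0 were called, and Cox4i2, Cox6a2 and Ndufa4l2 were not above the filter. Of the genes in mitochondrial DNA, 1 was matched to a probe set, and it was not called. The strain means of the list means correlated with the members' mean, over 25 strains, at 0.85 for ATP synthase, 0.69 for assembly factors, 0.68 for the further chain subunits, 0.47 for the tricarboxylic acid cycle and -0.27 for the biogenesis regulators. In 129S1/Sv1mJ, 13 of 15 ATP synthase subunits, 25 of 32 assembly factors and 11 of 14 further chain subunits were above the mean of their sex in both pools. In female P/J the ATP synthase mean was -0.32, the lowest of the 50 arrays.

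Among all tested genes that are no member, those whose strain means were most like the members' mean over 25 strains were Mrpl34 and Ndufaf3 at a correlation of 0.82, Stoml2 at 0.81, Micos13, Atp5c1, Mrpl17, Pigbos1 and Grcc10 at 0.80, Polr2e at 0.79 and Tmem9b at 0.78. Mrpl34 and Mrpl17 encode mitochondrial ribosomal proteins, Atp5c1 the gamma subunit of ATP synthase, and Stoml2 and Micos13 inner membrane proteins. The most opposed were Sfxn5 at -0.82, Senp6 at -0.78, Arid1b at -0.77, and Myef2 and Hnrnpul2 at -0.74. These genes share the arrays, and so the RNA samples, with the members.

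Over 25 strains, the marker means of cell types in the ganglion or near it correlated with the members' mean at -0.08 for neurons, -0.03 for Schwann cells, -0.37 for satellite glia, 0.23 for skeletal muscle, 0.05 for adipose tissue, 0.17 for blood, -0.01 for macrophages and 0.03 for vessels and fibroblasts. Against the same 26.1%, called for strain were 2 of 10 neuron, 3 of 5 Schwann cell, 5 of 6 satellite glia, 0 of 10 skeletal muscle, 0 of 3 adipose, 4 of 4 blood, 3 of 5 macrophage and 5 of 9 vessel and fibroblast markers. The skeletal muscle mean ran from -1.17 in female KK/HIJ to 3.73 in female SM/J, and the mean of the muscle isoform list was also highest in that array, at 0.63. Cox8b, a muscle form of a complex IV subunit, had its highest strain mean in SM/J, at 4.62, and was not called. In bulk tissue fewer cells of a type and less RNA per cell cannot be told apart, and the part of cell composition in the members' differences was not tested.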

How the data were processed

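Total RNA of pooled dorsal root ganglia was hybridized to Affymetrix arrays of 45101 probe sets, 1 per sex and strain. The deposited values are linear intensities; the submitters' processing notes name GCRMA and R 2.6.2 as the tools the authors used. Here log2(intensity + 1) was used and 64 control probe sets were left out. Gene names came from the platform annotation; 34945 probe sets carry 1 symbol. The limma package 3.58.1 (R 4.3.3) gave a moderated F test of the 25 strains in a model that also held sex, a test of sex with strain as a block, and a test of each strain against the mean of the other 24. P-values were Benjamini-Hochberg adjusted over the 22205 tested probe sets, and over probe sets and strains together. The fit was tested on simulated data. The number of arrays limits precision. No 2 arrays held identical values. All members may be named; strain values are given for those called in single strains, the 3 widest and the 3 narrowest ranges, and from other lists for up to 3 called genes of widest range. The 10 non-members most like the members' mean and the 5 most opposed are named. Motif letters were searched in RefSeq windows with Python 3.11.15; the NRF1 letters were shortened after the promoters were read. The members, lists and alternatives were chosen with earlier results of these data known. The build of the probe annotation is not given in the sources used here.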

Additional observations from a re-analysis of the deposited data

How the results depend on the processing

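The count of 3 members called for strain was 5 with no filter on low values, 6 with a trended and robust eBayes, 7 with the median over a gene's probe sets, and 2 with no sex term. It lay between 2 and 8 when each array was left out in turn, the 8 being reached without male P/J. Cox5b and Uqcrq were called in all 50 of these fits and Ndufa3 in 41. The 2 members higher in males became 10 under joint quantile normalization, 10 with the members' mean subtracted, 4 with probe sets without suffixes, 1 with the median over probe sets and 1 without SM/J and PL/J, and 2 to 4 with arrays left out. The 17 higher in females became 5 with probe sets without suffixes, where 29 members were measured, and 11 with the members' mean subtracted, and 15 to 18 with arrays left out. The difference of Ndufc1 reversed to 0.149 with probe sets without suffixes; the cause was not tested. The pairs of member and strain, 0 with a minimum difference, were 12 with none, and 0 to 2 with arrays left out, the 2 without male P/J. The median range of 0.504 was 0.553 with probe sets without suffixes, 0.439 with the members' mean subtracted, 0.655 in male arrays and 0.692 in female arrays, and 0.484 to 0.570 with arrays left out. The median pair correlation of 0.206 was 0.348 with probe sets without suffixes, -0.0163 with the members' mean subtracted, which removes what the members share, 0.270 in female arrays, and 0.181 to 0.251 with arrays left out. Other pseudocounts, a stricter filter, median centring and leaving out male BTBT T+tf/J with female P/J left each of these 6 results within 1.5 times or within the spread of the sexes. Leaving out those 2 arrays did change which members were called for strain, with Ndufv1 in place of Ndufa3. The lone pools of both strains were then assumed to vary like those of other strains. Replicates carry no number in the labels, and no pairing beyond that by strain was used.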
